A study of Mus musculus with 6 samples.

Results

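The genes described here are 9 genes of simple epithelia: the keratins Krt7, Krt8, Krt18 and Krt19, the adhesion gene Epcam, the claudins Cldn4, Cldn6 and Cldn7, and the splicing regulator Esrp1. They were taken by symbol from the 22600 genes of a table of read counts, and 9 of 9 were present and passed the filter on low counts. RNA-seq was carried out on mouse embryonic stem (ES) cells and on FLICs, the name the labels give to differentiated cells made from ES cells. The 6 libraries were FLICs with OHT (labelled TRF2-/-, n = 1), untreated FLICs (labelled wild-type, n = 1), ES cells with OHT (labelled TRF2-/-, n = 2) and untreated ES cells (labelled wild-type, n = 2). All came from a C57BL/6 background and were kept 96 h in culture, and OHT, which is hydroxytamoxifen, a metabolite of tamoxifen, was given for 3 days. TRF2, encoded by Terf2, is a protein of the shelterin complex that caps telomeres. No group received OHT with TRF2 intact, so OHT and the loss of TRF2 cannot be told apart. The labels do not say how the gene was deleted, whether the lines are single clones, or whether the ES cell libraries of a pair are separate cultures. The p-values thus cover the spread among these libraries, which may be technical.

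Simple epithelia are single-layered linings, and keratins are their intermediate filaments. A keratin filament is built from pairs of a type II keratin (Krt7, Krt8) and a type I keratin (Krt18, Krt19), and a keratin without a partner is known to be degraded. Krt8 and Krt18 are the first keratins of the mouse embryo, where they appear in trophectoderm. Claudins are the membrane proteins that form the strands of tight junctions, and EpCAM is a surface protein of epithelial and ES cells that binds claudin-7. Esrp1 directs the splicing of transcripts towards their epithelial forms. Zeb and Snail factors are known to bind the E-box CACCTG and to repress epithelial genes.

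The libraries held 23534551 to 43965309 counts. Where a count is 0, the limit is set at 3 counts; limits and counting intervals cover counting error only. Terf2 followed the labels, with 9 and 10 counts in ES cells with OHT against 554 and 732 in untreated ES cells, and with 5 counts in FLICs with OHT against 268 in untreated FLICs. In FLICs the 8 ES cell markers summed to 83.9 CPM with OHT and 122 CPM without, with Zfp42 at 0 in both libraries. The 10 fibroblast markers summed to 8714 and 5957 CPM in FLICs with and without OHT, of which Fn1 gave 6672 and 4763 CPM. In ES cells each of the 8 ES cell markers had counts in each library, and their sum was 3443 and 3693 CPM with OHT and 3890 and 4013 CPM without. CPM values are counts scaled to a common library size, with TMM scaling. As these are bulk libraries, fewer cells that express a gene and less of its RNA per cell cannot be told apart.

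Krt8, Krt18 and Krt7 lie on mouse chromosome 15 (GRCm38). Krt8 (ENSMUSG00000049382, 101996698 to 102004482, minus strand) and Krt18 (ENSMUSG00000023043, 102028180 to 102032027, plus strand) are neighbours that face away from each other, with starts 23698 bases apart. Krt7 (ENSMUSG00000023039) spans 101411043 to 101430313, and Krt19 (ENSMUSG00000020911) lies on chromosome 11 at 100140810 to 100148665. Epcam (ENSMUSG00000045394) is on chromosome 17 at 87635979 to 87651129, and Cldn6 (ENSMUSG00000023906) is on the same chromosome at 23679249 to 23682446. Cldn4 (ENSMUSG00000047501) is on chromosome 5 at 134945119 to 134946934, Cldn7 (ENSMUSG00000018569) on chromosome 11 at 69964779 to 69967885, and Esrp1 (ENSMUSG00000040728) on chromosome 4 at 11331933 to 11386783.

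Promoter sequence was read for 6 of the 9 genes, as 7 RefSeq promoters on GRCm38.p6, each running from 250 bases before to 50 bases after a RefSeq start. Those of Krt8, Krt19 and Esrp1 were not used here. CACCTG, read on both strands, occurred in 6 of the 7 promoters and so for each of the 6 genes, against 20.2% of 32851 promoters in the table. The stretches around it are printed because they are what these promoters share, 5′ to 3′ on the strand of the gene, with CACCTG or its reverse complement CAGGTG in capitals. For Epcam, Cldn4 and Krt18 the bases directly upstream of the annotated gene are given (chr17:87635729-87635978 plus strand, chr5:134946935-134947184 minus strand and chr15:102027966-102028179 plus strand).
Epcam: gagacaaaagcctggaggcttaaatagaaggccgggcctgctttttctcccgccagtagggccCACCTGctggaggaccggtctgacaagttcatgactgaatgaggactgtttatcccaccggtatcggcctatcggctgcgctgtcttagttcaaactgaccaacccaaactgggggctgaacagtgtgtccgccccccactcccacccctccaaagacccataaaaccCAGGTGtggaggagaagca
Cldn4: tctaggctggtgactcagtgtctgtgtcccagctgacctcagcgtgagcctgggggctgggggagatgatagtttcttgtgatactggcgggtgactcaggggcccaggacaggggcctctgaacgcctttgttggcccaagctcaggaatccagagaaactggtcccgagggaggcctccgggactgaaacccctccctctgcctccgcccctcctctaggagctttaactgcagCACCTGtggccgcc
Krt18: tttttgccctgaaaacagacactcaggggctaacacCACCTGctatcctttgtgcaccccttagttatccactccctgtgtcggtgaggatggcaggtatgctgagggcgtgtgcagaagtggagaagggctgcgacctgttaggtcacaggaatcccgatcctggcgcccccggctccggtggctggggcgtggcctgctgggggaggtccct

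For Krt7 (chr15:101412347-101412376), Cldn6 (chr17:23679260-23679289) and Cldn7 (chr11:69965312-69965341 and chr11:69965352-69965381, all plus strand), 30 bases around each E-box upstream of the RefSeq start are given; all lie within the outermost annotated span of the gene.
Krt7: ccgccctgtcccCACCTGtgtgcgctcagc
Cldn6: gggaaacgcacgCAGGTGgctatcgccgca
Cldn7, first: tttcttcctcttCACCTGgacgaggagggg
Cldn7, second: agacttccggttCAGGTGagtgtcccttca

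The other motifs searched were less shared. GGGCGG, the site of Sp and Klf factors, was in 5 of 7 promoters against 35.7% of all, GCCNNNGGC, an AP-2 site, in 2 (Krt7 and Krt18) against 16.6%, and TGANTCA, an AP-1 site, in 1 (Cldn4) against 7.81%. AACCNGTT, a Grainyhead-like site, TATAAA and CCAAT were in 0, against 2.09%, 13.6% and 37.4%. Both strands were read, and 1 of the AP-2 matches of Krt7 overlaps a GGGCGG. These are matches of letters in a fixed window, and no binding was measured.

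The first comparison asked how the 9 genes differ in ES cells that received OHT and lost TRF2. Krt18, the type I partner of Krt8, rose in ES cells with OHT and was 1 of 9 members called, against 0.521% of all 15535 genes tested called higher. No member was called lower, against 0.0129% of all genes. Krt18 had 43.7 and 42.0 CPM in ES cells with OHT, against 15.4 and 18.5 CPM in untreated ES cells. Both libraries with OHT thus lay far above both untreated ones. The mean was 42.8 ± 1.17 CPM with OHT and 16.9 ± 2.15 CPM without (SD, n = 2 each), a log2 fold change of 1.34 (SE 0.16, edgeR quasi-likelihood adjusted p = 0.0414). It was not called without untreated replicate 1 (1.21, edgeR adjusted p = 0.463) or without untreated replicate 2 (1.47, adjusted p = 0.285).

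Krt19, the other type I keratin, had 7.68 and 16.0 CPM in ES cells with OHT, against 2.75 and 3.73 CPM in untreated ES cells. The groups did not overlap, and the second library with OHT stood well above the first. Its log2 fold change was 1.86 (SE 0.39), above that of Krt18, with edgeR adjusted p = 0.120. DESeq2 called it (1.91, adjusted p = 0.00076), and so did a fit with a block for the replicate number. It was 2.30 without OHT-treated replicate 1 and 1.27 without OHT-treated replicate 2, the ends of its range over 10 alternatives. Of these 10, 4 called it.

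The type II keratins were not called. Krt8, the partner of Krt18, had 47.9 and 44.1 CPM in ES cells with OHT, against 35.3 and 32.3 CPM in untreated ES cells, without overlap. Its log2 fold change was 0.44 (SE 0.14, 95% interval 0.09 to 0.80, edgeR adjusted p = 0.201). Krt7, a keratin of ducts and of mesothelium, was near the limit of detection, with 0.468 and 1.33 CPM in ES cells with OHT, against 0.199 and 0.506 CPM in untreated ES cells. For Krt7 the groups overlapped (log2 fold change 1.29, SE 0.68, edgeR adjusted p = 0.364), and with a library left out its log2 fold change ran from 0.39 (without OHT-treated replicate 2) to 2.14 (without untreated replicate 2).

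**Figure D1:**
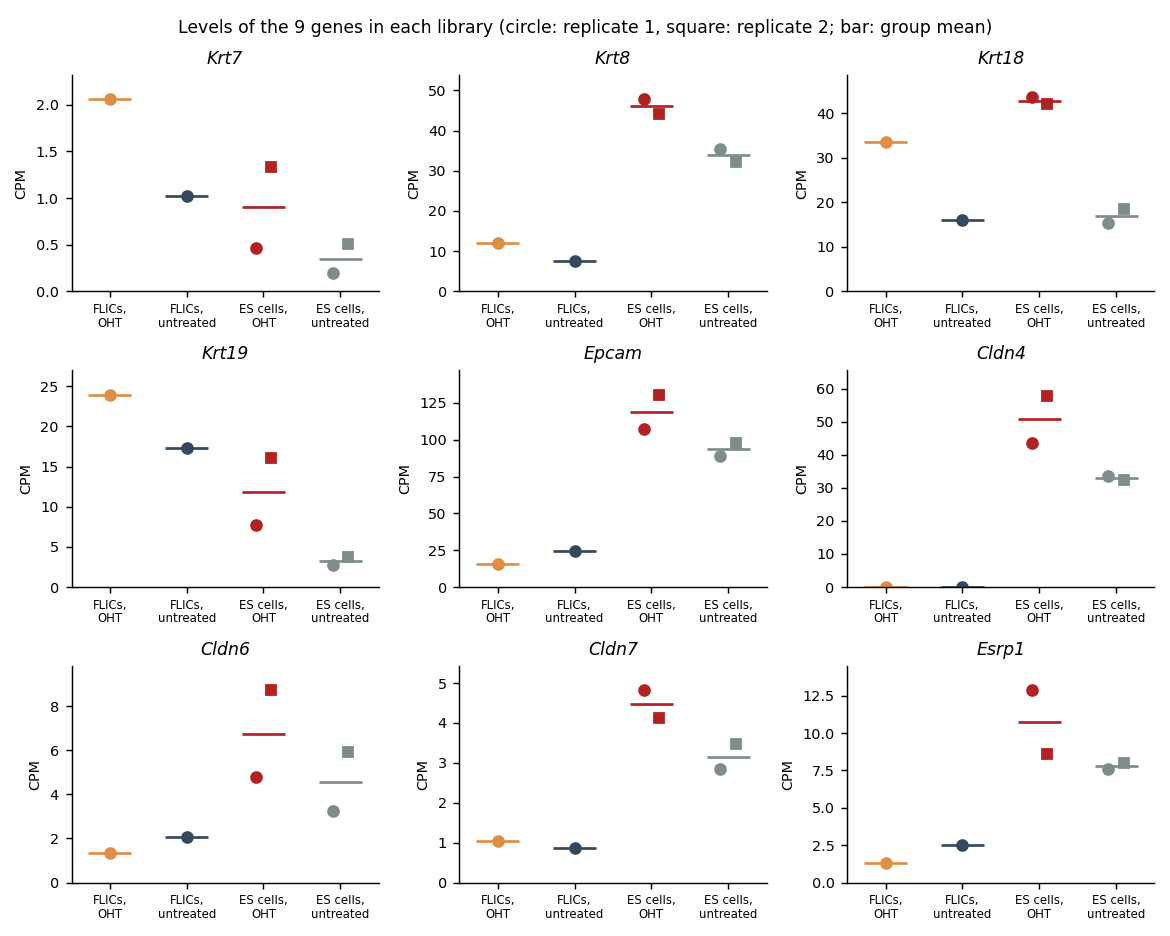
Level of each of the 9 genes in CPM (linear axis from 0, with its own scale in each panel) in FLICs with OHT, untreated FLICs, ES cells with OHT and untreated ES cells. Circles are replicate 1, squares replicate 2, and the bar is the group mean. Krt18 sits at 42.0 and 43.7 CPM in ES cells with OHT and at 15.4 and 18.5 CPM in untreated ES cells, while Cldn4 is near the axis in both FLICs libraries.

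Among the junction genes none was called in ES cells with OHT, and each had a log2 fold change above 0. Epcam, per length the most abundant of the 9 genes in ES cells, had 107 and 131 CPM in ES cells with OHT, against 89.1 and 98.0 CPM in untreated ES cells (log2 fold change 0.35, SE 0.15, edgeR adjusted p = 0.304). Cldn4, a claudin of tight epithelia, had 43.7 and 57.9 CPM with OHT, against 33.8 and 32.4 CPM without (0.62, SE 0.18, edgeR adjusted p = 0.182). For both genes the 2 libraries with OHT lay above the 2 untreated ones. Cldn7, the claudin that EpCAM binds, had 4.84 and 4.12 CPM with OHT, against 2.85 and 3.46 CPM without (0.50, SE 0.25, edgeR adjusted p = 0.340). Cldn6, a claudin of early embryonic epithelium, had 4.77 and 8.74 CPM with OHT, against 3.24 and 5.91 CPM without (0.55, SE 0.41, edgeR adjusted p = 0.50). The libraries overlapped for Cldn6 and not for Cldn7.

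Esrp1 had 12.9 and 8.63 CPM in ES cells with OHT, against 7.61 and 8.01 CPM in untreated ES cells. Both libraries with OHT were above both untreated ones, the second by little, and the difference was not called (0.46, SE 0.25, edgeR adjusted p = 0.367).

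Over the 9 genes, the log2 fold change with OHT in ES cells was above 0 in 9 of 9 and ran from 0.35 for Epcam to 1.86 for Krt19, with a median of 0.55, beside a median of -0.0082 over all genes tested. Both libraries with OHT lay above both untreated libraries for 7 of the 9 genes, and for 25.2% of all genes tested. Without OHT-treated replicate 1, 7 members were called higher (all but Cldn7 and Esrp1), and without OHT-treated replicate 2, 6 were (all but Krt7, Epcam and Cldn6). Over all genes 3053 and 2266 were then called higher, in place of 81, with the spread taken from the untreated pair alone. Markers of other cell types were summed in the same libraries and counted by their log2 fold changes, to be read beside the 9 of 9 and the median of 0.55 above. The 8 trophoblast markers summed to 108 and 99.9 CPM in ES cells with OHT and 101 and 96.0 CPM in untreated ES cells, most of it Eomes and Tfap2c. The log2 fold change was above 0 for 7 of those 8 markers, with a median of 0.72, and was -0.45 for Eomes. The largest values rest on few counts. They were 2.50 for Elf5 (24 and 24 counts with OHT against 3 and 7 without), 2.15 for Plac1 (11 and 12 against 2 and 4) and 1.60 for Hand1 (110 and 54 against 21 and 42). The 10 primitive and visceral endoderm markers summed to 17.2 and 14.0 CPM with OHT and 6.72 and 6.92 CPM without, with Ttr at 0 in each library and 7 of 8 tested above 0 (median 1.24). The 5 mesothelium markers summed to 21.0 and 32.0 CPM with OHT and 12.6 and 18.1 CPM without, and the 6 stratified epithelium markers to 6.49 and 9.57 CPM with OHT and 5.16 and 4.55 CPM without. Of these, 4 of 5 mesothelium markers (median 0.67) and 4 of 4 tested stratified epithelium markers (median 0.83) had a log2 fold change above 0. The 13 genes of the two-cell state summed to 324 and 240 CPM with OHT and 15.8 and 16.2 CPM without, and 11 of the 13 were called higher. The 10 fibroblast markers summed to 1775 and 1131 CPM with OHT and 1895 and 1941 CPM without, nearly all of it Fn1 (log2 fold change -0.41). Of the 9 fibroblast markers tested, 7 had a log2 fold change above 0, with a median of 0.43. The largest values again rest on few counts. They were 1.99 for Col1a2 (16 and 5 counts with OHT against 3 and 3 without) and 1.17 for Col3a1 (4 and 2 against 1 and 2). No member of these lists other than the two-cell genes was called. The part of these cell states in the levels of the 9 genes was not tested.

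**Figure D2:**
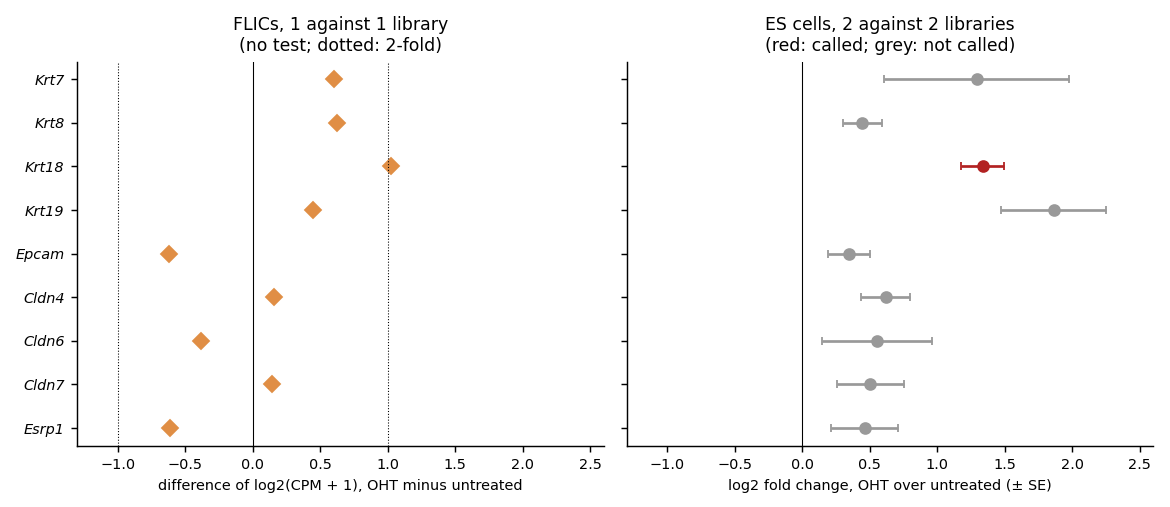
Left, the difference of log2(CPM + 1) between the single FLICs libraries, OHT minus untreated, with dotted lines at 2-fold. Right, log2 fold change of each gene in ES cells, OHT over untreated, with bars of 1 SE (n = 2 each; red marks a call at an edgeR adjusted p under 0.05). In FLICs Epcam, Cldn6 and Esrp1 lie below 0, Cldn4 rests on 5 and 0 counts, and in ES cells 9 of 9 points lie above 0.

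FLICs were sequenced once with and once without OHT, so these values have no replicate check and no test. The size rule asked for a 2-fold difference of log2(CPM + 1) and a mean of 1 CPM or more, a mean that 7 of the 9 genes reached. Krt18 was the single member past 2-fold, with 33.6 CPM in FLICs with OHT against 16.1 CPM in untreated FLICs, a difference of 1.02 on the log2(CPM + 1) scale, where the scale understates changes of low genes. Of 11789 genes with that mean, 0.424% were past 2-fold higher and 0.102% lower. The ratio of its CPM was 2.10 (95% counting interval 1.89 to 2.32), and it was under 2-fold with a pseudocount of 5 CPM (0.88) and with relative log expression scaling.

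The other keratins had ratios above 1 in FLICs. Krt8 had 12.1 CPM in FLICs with OHT against 7.47 CPM in untreated FLICs (ratio 1.61, counting interval 1.38 to 1.89), and Krt19 had 23.95 against 17.3 CPM (1.38, 1.25 to 1.53). Krt7 had 2.06 CPM with OHT against 1.02 CPM without (2.02, 1.34 to 3.11). So each of the 4 keratins had a higher CPM in the FLICs library with OHT. This direction was not particular to keratins. Of the fibroblast markers that met the level set by the size rule, 7 of 7 also had a difference above 0. Their median on the log2(CPM + 1) scale was 0.53, beside 0.034 over the 11789 genes. On that scale Krt8 was at 0.62, Krt7 at 0.60 and Krt19 at 0.44. Whether the keratins follow a wider shift between these 2 single libraries was not tested.

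Epcam, Cldn6 and Esrp1 had the opposite order in FLICs. Epcam had 15.8 CPM in FLICs with OHT against 24.7 CPM in untreated FLICs (ratio 0.638, 0.575 to 0.707). Esrp1 had 1.30 against 2.53 CPM (0.515, 0.361 to 0.731), and Cldn6 had 1.35 against 2.07 CPM (0.653, 0.452 to 0.940). For these 3 genes the counting interval lies below 1, which says nothing of the spread between cultures. Cldn7 had 1.05 CPM with OHT against 0.864 CPM without (1.22, 0.745 to 2.02), and Cldn4 had 5 counts with OHT against 0 without. Most ES cell markers were lower in this pair too. Of the 5 that met the level set by the size rule, 1 (Klf4) had a difference above 0, and the median was -0.60. Pou5f1 had 47.3 CPM in FLICs with OHT against 80.9 CPM in untreated FLICs. Whether Epcam, Cldn6 and Esrp1 follow the ES cell markers was not tested.

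Whether the difference with OHT itself differed between FLICs and ES cells was tested as FLICs minus ES cells, with the single FLICs libraries taken to vary like those of ES cells. None of the 9 genes was called, and percent called over all 15535 genes tested was 0 with edgeR, with 1057 genes at an unadjusted p under 0.05. DESeq2 called 1 gene higher and 19 lower over the table, and 0 members. Epcam differed by -0.995 on the log2 scale (SE 0.27, edgeR adjusted p = 0.639), Esrp1 by -1.42 (SE 0.46, adjusted p = 0.671) and Krt19 by -1.40 (SE 0.64, adjusted p = 0.739). Krt8 and Krt18 differed by 0.25 and -0.27 (95% intervals -0.38 to 0.87 and -0.94 to 0.40). A 2-fold difference in either direction lies outside both of these intervals. Without OHT-treated ES cell replicate 1, the difference was called and below 0 for 4 members (Krt19 at -1.83, Epcam at -1.13, Cldn6 at -1.53 and Esrp1 at -1.10), and without OHT-treated replicate 2 for 3 of these, without Cldn6. In those fits 1003 and 743 genes were called lower over the table.

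The second comparison set FLICs against ES cells. In untreated FLICs, 5 of the 9 genes were lower than in untreated ES cells, against 28.7% of all genes tested called lower, and 1 was higher, against 26.2% called higher. The median log2 fold change of the 9 was -1.62, and that of all genes -0.11. The median of the 9 is the same with Cldn4 at the bound given below. FLICs with OHT were lower than ES cells with OHT in 6 of the 9, against 29.3% of all genes, and higher in 0, against 28.4%, with a median of -2.09 beside -0.07 over all genes. Each of these calls assumes that a single FLICs library varies like the ES cell libraries. The 10 primitive and visceral endoderm markers, of an early embryonic epithelium, summed to 269 and 259 CPM in FLICs with and without OHT. Most of this was Dab2, at 160 and 155 CPM, with Foxa2 at 61.5 and 66.8 CPM. Afp had 12 and 6 counts, and Sox17 and Ttr were at 0. Of the 8 endoderm markers tested, 5 were called higher and 2 lower in untreated FLICs against untreated ES cells. The trophoblast markers summed to 51.5 and 52.3 CPM in FLICs with and without OHT, of which Gata3 gave 42.3 and 46.8 CPM. In untreated FLICs 5 of the 8 were called lower (Cdx2, Elf5, Eomes, Ascl2 and Tfap2c) and 2 higher (Gata3 and Plac1). Of the 9 fibroblast markers tested, 7 were called higher and 2 lower (Pdgfra and Thy1) in the same comparison. In FLICs with and without OHT the mesothelium markers summed to 17.2 and 10.6 CPM and the stratified epithelium markers to 7.73 and 8.43 CPM. The part of such cells in the levels below was not tested.

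Among the 9 genes, Cldn4 had the widest gap between the cell types. It had 5 counts in FLICs with OHT and 0 in untreated FLICs, against 43.7 and 57.9 CPM in ES cells with OHT and 33.8 and 32.4 CPM in untreated ES cells. Measured against 3 counts in the library, which equal 0.0926 CPM, Cldn4 was lower in untreated FLICs by at least 357-fold against untreated ES cells (edgeR adjusted p = 6.7e-05). With OHT the log2 fold change was -8.75 (SE 0.41, edgeR adjusted p = 6.3e-05). Transcripts of this claudin were thus at or near the limit of detection in FLICs in both conditions.

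Epcam was 15.8 CPM in FLICs with OHT against a mean of 119 ± 16.5 CPM in ES cells with OHT, and 24.7 CPM in untreated FLICs against 93.6 ± 6.25 CPM in untreated ES cells (SD, n = 2). The log2 fold changes were -2.92 (SE 0.22, edgeR adjusted p = 0.000235) with OHT and -1.92 (SE 0.21, adjusted p = 0.00087) without. Esrp1 was lower as well, with -3.04 (SE 0.36, edgeR adjusted p = 0.00114) with OHT and -1.62 (SE 0.34, adjusted p = 0.00913) without. FLICs thus kept detectable transcripts of both genes, 689 and 801 counts of Epcam and 57 and 82 of Esrp1, with and without OHT.

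Cldn7 was -2.09 (SE 0.34, edgeR adjusted p = 0.00384) in FLICs with OHT against ES cells with OHT, and -1.86 (SE 0.35, adjusted p = 0.00684) without OHT. Without untreated ES cell replicate 2 the second value was -1.71 and no longer called (edgeR adjusted p = 0.0603). Cldn6 was called lower with OHT (-2.32, SE 0.57, edgeR adjusted p = 0.0166), while untreated FLICs and untreated ES cells differed by -1.15 (SE 0.54, adjusted p = 0.121). The untreated difference was called without OHT-treated ES cell replicate 1 (-1.16) or 2 (-1.14), with the spread then taken from the untreated pair alone. Between the 2 Cldn6 values the difference itself was -1.17 (95% interval -3.01 to 0.68) and was not called.

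The 4 keratins did not share a direction between the cell types. Krt8, type II, was lower in FLICs, at -1.93 on the log2 scale with OHT (SE 0.19, edgeR adjusted p = 0.000594) and -2.18 without (SE 0.20, adjusted p = 0.000451). Krt18, type I, was not called, at -0.35 with OHT (SE 0.19, edgeR adjusted p = 0.166) and -0.08 without (95% interval -0.56 to 0.40, adjusted p = 0.746). Krt19, type I, was higher in untreated FLICs, with 17.3 CPM against 2.75 and 3.73 CPM in untreated ES cells (2.42, SE 0.44, edgeR adjusted p = 0.00588). With OHT it had 23.95 CPM in FLICs against 7.68 and 16.0 CPM in ES cells, which was not called (1.02, SE 0.43, edgeR adjusted p = 0.0887). Krt7 was above both ES cell libraries in each condition and not called (1.21 with OHT and 1.49 without, edgeR adjusted p = 0.189 and 0.154). Fits without an OHT-treated ES cell library take the spread from the untreated pair alone. In both such fits Krt19 with OHT passed the threshold (0.57 without replicate 1 and 1.63 without replicate 2). So did Krt18 with OHT (-0.32 and -0.39) and Krt7 in untreated cells (1.46 and 1.48). Krt7 with OHT was called without OHT-treated ES cell replicate 2 (2.11) and was 0.62 without replicate 1, and in untreated cells it was 2.34 without untreated ES cell replicate 2.

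**Figure D3:**
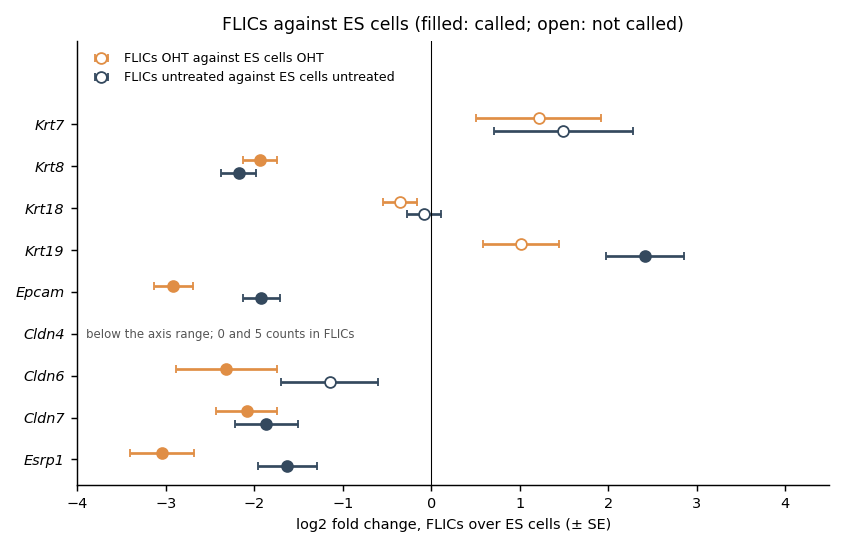
Log2 fold change of FLICs over ES cells, with OHT (orange) and untreated (dark blue), with bars of 1 SE; filled points passed an edgeR adjusted p of 0.05. Krt8, Epcam, Cldn7 and Esrp1 are filled and below 0 in both conditions, Krt18 is open in both, and Krt19 is filled and above 0 in the untreated pair. Cldn4, with 5 and 0 counts in FLICs, lies below the range of the axis.

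Levels of different genes were compared per length, as TPM (counts per length, scaled to a common sum) computed from the counts and the deposited gene lengths. In ES cells with OHT, the 4 keratins summed to 96.6 and 99.3 TPM, against 47.5 and 51.6 TPM in untreated ES cells, a ratio of means of 1.98. In FLICs the sum was 67.5 TPM with OHT and 39.5 TPM without, a ratio of 1.71. The balance among these 4 also differed by library: type II over type I (Krt7 and Krt8 over Krt18 and Krt19) was 0.808 and 0.668 in ES cells with OHT, against 1.68 and 1.27 in untreated ES cells. Among the 4 genes, type II thus exceeded type I within each untreated library and lay below it within each library with OHT. Type II itself was not lower with OHT, at 43.2 and 39.8 TPM against 29.8 and 28.8 TPM untreated. Type I was at 53.4 and 59.5 TPM with OHT, against 17.8 and 22.8 TPM untreated. The order within the untreated ES cell libraries does not extend to all keratins. There Krt42, another type I keratin, alone had 31.5 and 31.9 TPM, above the 29.8 and 28.8 TPM of Krt7 and Krt8 together. An exact two-sided permutation test of type II over type I in ES cells, 2 against 2 libraries, gave p = 0.333. That is the smallest value it can give, so it cannot decide whether the ratio differs. In FLICs the ratio was 0.210 with OHT and 0.216 without, so that Krt18 and Krt19 exceeded Krt7 and Krt8 in both.

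Within the pair that faces away on chromosome 15, Krt8 over Krt18 in TPM was 0.947 and 0.907 in ES cells with OHT, against 1.98 and 1.51 in untreated ES cells, and 0.309 in FLICs with OHT against 0.402 in untreated FLICs. Krt19 made up 15.6% and 28.6% of the summed TPM of Krt18 and Krt19 in ES cells with OHT, against 15.8% and 17.5% in untreated ES cells. In FLICs that share was 42.8% with OHT and 53.1% without. The 3 claudins summed to 4.70 TPM in FLICs with OHT and 5.43 TPM in untreated FLICs, against 110 and 144 TPM in ES cells with OHT and 77.6 and 85.1 TPM in untreated ES cells. Cldn4 held 4.66% and 0% of that sum in FLICs with and without OHT, against 82.3% in both ES cell libraries with OHT and 85.0% and 78.0% in the untreated ones.

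**Figure D4:**
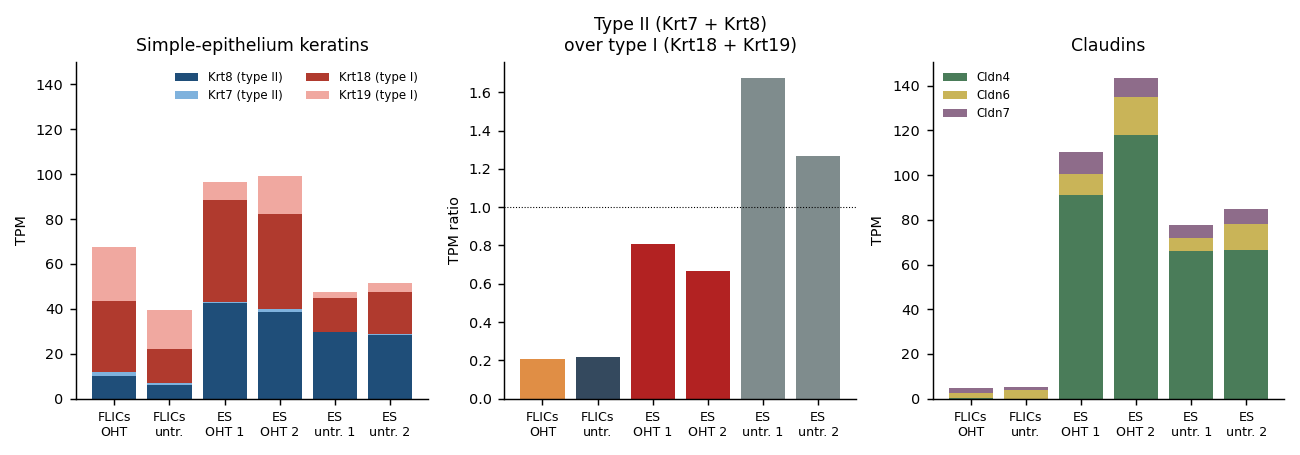
Left, TPM of the 4 keratins stacked by gene in each library, with type II in blue and type I in red. Middle, TPM of Krt7 and Krt8 over that of Krt18 and Krt19, with a dotted line at 1. Right, TPM of the 3 claudins stacked by gene. The ratio of these 4 genes is above 1 in the untreated ES cell libraries (1.68 and 1.27) and below 1 in the other 4, and Cldn4 fills most of the ES cell claudin bars.

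The order of the 9 genes by TPM in untreated ES cells was Epcam, Cldn4, Krt8, Krt18, Cldn6, Cldn7, Esrp1, Krt19 and Krt7, and only the neighbours Cldn6 and Cldn7 overlapped between libraries. In ES cells with OHT, Epcam (163 ± 20.2 TPM) and Cldn4 (104 ± 19.2 TPM) again led, Krt18 (43.8 ± 1.85 TPM) and Krt8 (40.6 ± 2.96 TPM) overlapped (SD, n = 2 each), and so did Cldn6, Krt19 and Cldn7 in turn. In FLICs with OHT the order began with Krt18 at 31.9 TPM, Krt19 at 23.9 TPM and Epcam at 20.1 TPM. In untreated FLICs it began with Epcam at 31.5 TPM, Krt19 at 17.3 TPM and Krt18 at 15.2 TPM, and Cldn4 was last in both FLICs libraries.

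Set against their whole families, the 4 keratins held 65.7% and 66.7% of the TPM of all 53 keratin genes in ES cells with OHT, against 48.9% and 51.1% in untreated ES cells. They held 77.8% in FLICs with OHT and 66.3% in untreated FLICs. Krt42 had the most TPM of any keratin in untreated ES cells. The 3 claudins held 5.09% of the TPM of 33 claudin genes in FLICs with OHT and 4.85% in untreated FLICs, against 68.7% and 68.2% in ES cells with OHT and 59.6% and 62.3% in untreated ES cells. In FLICs the claudin with the most TPM was Cldn12, at 77.7 TPM with OHT and 93.3 TPM without.

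Related genes of the same tissue type were counted by list. With OHT in ES cells, no member of the 8 lists of other keratins, other claudins, tight junction, adherens junction, desmosome, epithelial regulators, epithelial membrane proteins and proteases, and mesenchymal genes was called in either direction. Their medians ran from -0.24 for the adherens junction to 1.15 for the other claudins. Snai1, which encodes a repressor of epithelial genes and is named here after its values were seen, had 13.3 and 12.8 CPM in ES cells with OHT against 5.76 and 6.28 CPM in untreated ES cells (1.11, SE 0.16, edgeR adjusted p = 0.061).

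Between the cell types, list counts are to be read beside the 26.2% higher and 28.7% lower over all genes tested in untreated FLICs against untreated ES cells. Of 12 epithelial regulators, 10 were lower and 1 higher in untreated FLICs against untreated ES cells, with a median of -5.38, or -2.69 with the 3 genes at 0 counts in a group set at their bound. Elf3, an Ets factor of epithelia, had 0.123 CPM in untreated FLICs against 62.2 ± 5.84 CPM in untreated ES cells (-8.93, SE 0.35, edgeR adjusted p = 4.2e-05), and Grhl3, a Grainyhead-like factor, had 0 counts in untreated FLICs against 12.2 and 11.8 CPM. Of 9 tested epithelial membrane proteins and proteases, 7 were lower and 0 higher, with a median of -3.93, or -3.83 with 1 gene at its bound. Spint1, an inhibitor of the protease matriptase, was at 2.04 CPM in untreated FLICs against 63.0 ± 1.72 CPM in untreated ES cells (-4.95, SE 0.25, edgeR adjusted p = 6.8e-05). In both lists most of the members tested were lower in FLICs.

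Of 15 tight junction and polarity genes, 9 were lower and 2 higher in untreated FLICs against untreated ES cells (median -1.97). Ocln, encoding occludin, was at 0.525 CPM in untreated FLICs against 10.6 ± 0.914 CPM in untreated ES cells (-4.32, SE 0.32, edgeR adjusted p = 0.000214). Of 11 adherens junction genes, 4 were lower and 1 higher (median -0.54). The 2 classical cadherins went opposite ways: Cdh1, encoding E-cadherin, had 68.7 CPM in untreated FLICs against 731 ± 66.6 CPM in untreated ES cells (-3.41, SE 0.27, edgeR adjusted p = 0.000272). Cdh3, encoding P-cadherin, had 319 CPM in untreated FLICs against 50.7 ± 2.29 CPM in untreated ES cells (2.65, SE 0.21, edgeR adjusted p = 0.000284). Of 9 desmosome genes, 4 were lower, Dsg2 the most (-6.76, SE 0.28, edgeR adjusted p = 4.3e-05), and 3 higher (median -0.09). In lists this short the adherens junction and desmosome counts are not read as differing from the shares over all genes.

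The other keratins and claudins had calls in both directions, as all genes tested did. Of 10 other keratins tested, 3 were higher in untreated FLICs and 2 lower, with a median of -0.42, or -0.08 with 3 genes at their bound. Krt80, an epithelial type II keratin, had 9.85 CPM in untreated FLICs against 3 counts in all in untreated ES cells, while Krt42 and Krt17 had 0 counts in untreated FLICs against means of 34.1 and 11.3 CPM in untreated ES cells. Of 10 other claudins, 5 were higher and 3 lower (median 0.28), Cldn12 among the higher at 56.8 CPM in untreated FLICs against 23.6 and 22.9 CPM in untreated ES cells (1.29, SE 0.24, edgeR adjusted p = 0.00685).

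Of 10 mesenchymal filament genes and repressors of epithelial genes, 7 were higher and 1 lower in untreated FLICs against untreated ES cells, with a median of 3.27. Vim, encoding vimentin, had 6173 CPM in untreated FLICs against 360 ± 51.9 CPM in untreated ES cells (4.10, SE 0.22, edgeR adjusted p = 8.7e-05). Zeb2 and Snai2, which encode repressors that bind CACCTG, had 76.9 and 78.2 CPM in untreated FLICs against means of 1.10 and 0.733 CPM in untreated ES cells. Their log2 fold changes were 6.12 (SE 0.40) and 6.72 (SE 0.43). Zeb1, which encodes another such repressor, had 52.4 CPM in untreated FLICs against 36.0 and 38.9 CPM in untreated ES cells and was not called there. CACCTG is the motif printed above for 6 of the genes. Of these, Epcam, Cldn4 and Cldn7 were called lower in untreated FLICs, while Cldn6 (-1.15), Krt18 (-0.08) and Krt7 (1.49) were not called. No binding was measured, and the part of these repressors in the levels was not tested.

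Among 15534 other genes, those whose centred log2(CPM + 1) values over the 6 libraries lay nearest to Krt18 were S100a13 (root mean square difference 0.16), C1qtnf4 (0.18) and Pdlim3 (0.19). S100a13 had 36.0 and 40.7 CPM in ES cells with OHT, against 13.4 and 15.2 CPM in untreated ES cells. In FLICs it had 22.1 CPM with OHT against 12.7 CPM without. Of the members, Krt7, which is near the limit of detection in ES cells, was nearest to Krt18, at rank 2150. The others ran from rank 5219 for Cldn7 to 15262 for Cldn4. Krt8, which pairs with Krt18 in filaments, was at rank 11233. Nearest to Epcam were Cited1 (0.11), Carmil2 (0.16) and Cox7a1 (0.16), and of the members Esrp1 was at rank 281, Krt8 at 626, Cldn7 at 1300 and Cldn6 at 1316. The other members lay far from Epcam, with Krt18 at rank 8535, Cldn4 at 11129, Krt7 at 11573 and Krt19 at 13988. These ranks describe 6 libraries that fall mainly into ES cells and FLICs.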

How the data were processed

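The authors deposited whole-number read counts per gene, not normalized, in 1 table of 22600 genes and 6 library columns with a length per gene. Salmon, DESeq2 and GRCm38 are named, without versions, in the submitters' processing notes. The RNeasy Mini Kit was used for RNA and the TruSeq Stranded Total RNA LT kit for libraries, per the labels. How reads shared with processed pseudogenes, such as Krt8-ps, were assigned is not given in the sources used here. Since 77.6% of the lengths were multiples of 3, most TPM values appear to rest on coding lengths. The length of Esrp1, 2167 bases, was not a multiple of 3. Symbols matched 22509 genes, and positions are from GENCODE M21.

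The members and the related lists were chosen with earlier results of these data known. All 9 members are named, with Terf2, the 3 genes nearest to Krt18 and to Epcam, and up to 4 called members per list with the largest log2 fold change at a mean of at least 1 CPM. Further list members, some of them not called or below 1 CPM, are named after their values were seen.

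Counts were tested with edgeR 4.0.16 in R 4.3.3: filterByExpr by group (15535 genes), TMM, 1 mean per group over 6 libraries, quasi-likelihood tests and Benjamini-Hochberg adjustment, with calls at 0.05. Residual degrees of freedom were 2, from the ES cell pairs, prior degrees of freedom 3.79, and the common biological coefficient of variation was 18.5%. An SE is the log2 fold change over the square root of F. The procedure was tested on simulated counts with a common spread for all genes and libraries. That test cannot check whether single FLICs libraries vary like those of ES cells. The ES cell libraries of each pair differed beyond counting noise (chi-square over its degrees of freedom 66.3 with OHT and 13.2 untreated) and count as 2 samples. Alternatives were DESeq2 1.42.0, relative log expression scaling, no filter, a filter of 5 CPM in 2 libraries, ES cells only, a replicate block, each ES cell library left out, and for FLICs other pseudocounts and scaling by total counts.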

Additional observations from a re-analysis of the deposited data

Results flagged for a closer look

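Epcam was above both untreated libraries in both ES cell libraries with OHT, and below the untreated library in FLICs with OHT. The difference with OHT in FLICs minus that in ES cells was -0.995 on the log2 scale (95% interval -1.67 to -0.32, unadjusted p = 0.0114, edgeR adjusted p = 0.639). Esrp1 showed the same opposite order, and its difference was -1.42 (95% interval -2.55 to -0.29, unadjusted p = 0.0223, edgeR adjusted p = 0.671). Neither passed the threshold over all genes, and each rests on 1 FLICs library per condition, with 689 and 801 counts of Epcam and 57 and 82 of Esrp1 with and without OHT. Over 9 alternatives the difference stayed below 0 for both, from -1.13 to -0.88 for Epcam and from -1.71 to -1.10 for Esrp1. Both genes were flagged for their opposite orders, so a difference away from 0 is favoured by the choice. In the same FLICs pair the 8 ES cell markers also had a lower sum with OHT, at 83.9 against 122 CPM. Among 15535 genes tested, 1057 had an unadjusted edgeR p under 0.05 for this difference.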

How the results depend on the processing

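Of 325 member values recomputed under other settings, 286 kept direction and side of the threshold, 33 passed it newly, 3 lost it and 3 reversed. Of those that lost it or reversed, 6 of 6 came from leaving out an ES cell library. With OHT in ES cells, 1 member was called higher, against 2 with DESeq2 and 2 with a replicate block (Krt19 joining), and 0 to 7 with a library left out. Over all genes 81 were called higher and 2 lower, against 285 and 86 with DESeq2, 814 and 392 with the block, 236 and 26 with no filter, 143 and 5 with ES cells only, and 44 higher at 5 CPM. Without untreated replicate 1 or 2, 17 and 19 were higher, and without OHT replicate 1 or 2, 3053 and 2266 were higher and 3112 and 2116 lower. For FLICs against ES cells the members called higher were 2 with the block in each condition (Krt7 joining untreated at 1.69, Krt7 at 1.37 and Krt19 at 1.10 with OHT), and the block called Cldn6 lower in untreated FLICs (-1.08, edgeR adjusted p = 0.00752); with a library left out they were 1 to 2 untreated and 0 to 2 with OHT. Over all genes 4074 were higher and 4458 lower in untreated FLICs, against 2506 and 2869 without untreated ES cell replicate 1 and 2546 and 2845 without replicate 2. For the difference between cell types, 0 to 4 members were called lower with a library left out, and over all genes the block called 1 higher and 16 lower, and the fits without OHT replicate 1 or 2 called 1801 and 1304 higher. The reversed values were not called: Krt7 for that difference ran from -1.13 to 0.63 with a library left out (0.20 without untreated replicate 1), and Krt18 in untreated FLICs against untreated ES cells from -0.20 to 0.058. For OHT in FLICs, 0 members were past 2-fold with a pseudocount of 5 CPM or relative log expression scaling, and over all genes 50 higher and 12 lower became 128 and 32 at 0.25 CPM and 5 and 3 at 5 CPM. The replicate numbers pair the samples only by name. Deviations of same-numbered ES cell libraries from their group means correlated at 0.437 over 15535 genes. The main test leaves this pairing out, and the replicate block takes it in. The causes were not tested. Krt7 and Cldn7 did not pass the filter of 5 CPM in 2 libraries. Depth limits Krt7, Cldn4 in FLICs and Cldn7 most.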
